A study of Mus musculus with 12 samples.

Results

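The genes described here are 38 lysosomal hydrolases, cathepsins, cystatins and their partners, taken as a list of symbols and each matched to 1 row of a table of 54532 genes. They comprise 9 cysteine proteases, 3 other proteases, 2 cystatins, 9 enzymes of glycan breakdown, 8 genes of lipid handling (progranulin included), 6 membrane proteins and Tfeb. The lysosome breaks down proteins, glycans and lipids delivered by endocytosis, phagocytosis and autophagy. Its cathepsins are proteases, its glycosidases and sulfatases take sugar chains apart, its lipases and transport proteins clear lipids, and its membrane proteins shield the organelle and move solutes. Cystatins are small proteins that block cysteine cathepsins, and the transcription factor TFEB drives many lysosomal genes together. In brain these genes are known for strong expression in microglia, the resident phagocytes, and the cystatin gene Cst3 for strong expression in astrocytes.

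RNA was sequenced from cultures of astrocytes, glial cells that support neurons, prepared from cortex and hippocampus of C57BL/6 adults. The 12 libraries form 3 experiments, each with 2 control and 2 other libraries. The first set astrocytes with a conditional knockout (cKO) of Ogt against their controls at 4 months of age. Ogt encodes the enzyme that puts the sugar O-GlcNAc on proteins. The labels give both groups of that experiment the genotype Glast-CreERT2::Ogtfloxp/Y, so its controls are also listed with the floxed Ogt allele and with the Cre recombinase that the astrocyte promoter Glast drives and tamoxifen activates, and no tamoxifen dose is described. The second set the amyloid model 5X APP (AD model) against wild type mice, 6 months old by the sample labels and 5 months old by the series text. The third set wild type astrocytes from 2-month-old mice given 20 µM amyloid-beta 1-42 (Aβ), the peptide of amyloid plaques, against untreated ones. The exposure is listed as 72 hours for replicate 1 and 73 hours for replicate 2. The labels do not say whether replicates came from separate animals or cultures, so each p-value measures the spread between these libraries, which may be technical.

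Levels are given as FPKM, fragments per kilobase of gene scaled to library size, and every pair of values gives replicate 1 and then replicate 2, the controls first. Each library held 16418852 to 18705309 reads on genes, and a member had from 200 reads (Ctsk) to 153062 reads (Ctsb) in a library. Changes were tested with limma on log2(FPKM + 1) over the 14014 genes with at least 1 FPKM in 2 libraries, which held all 38 members, and "rose", "fell", "higher" and "lower" with a test mean an adjusted p under 0.05 (Benjamini-Hochberg, two-sided). Ogt was at 20.8 and 24.7 FPKM in the cKO controls and 11.0 and 12.03 in the Ogt cKO (log2 change -0.92 ± 0.30 (SE), adjusted p = 0.038), at 10.0 and 22.7 in the AD controls and 18.3 and 19.9 in the AD model, and at 7.85 and 10.4 in the Aβ controls and 12.4 and 10.6 with Aβ. Transcripts of several cell types were present in every group, and 13 of 14 astrocyte markers passed the filter. The astrocyte markers summed to 94.3 to 192 FPKM in the Ogt cKO, Aβ control and Aβ libraries and to 262 to 810.4 in the others. Markers of pericytes and smooth muscle, cells of the vessel wall, 8 listed, summed to 1011 and 505 FPKM in the cKO controls and 4027 and 4076 in the Ogt cKO. In the AD controls they summed to 3842 and 1719.6, and in the AD model to 759 and 210.1. In the Aβ controls they summed to 4104 and 3602, and with Aβ to 488 and 421. Fibroblast markers, 8 listed, summed to 1207 and 1330 FPKM in the cKO controls, 2051 and 2049 in the Ogt cKO and 612 to 2665 in the others. The defining astrocyte gene Slc1a3 was at 22.4 and 24.6 FPKM in the cKO controls, 2.58 and 2.45 in the Ogt cKO and 2.42 and 3.66 in the Aβ controls. Aqp4 was at 14.2 and 15.6, 2.49 and 4.88 and 1.47 and 2.31 in the same groups. The filament gene Gfap ranged from 29.1 to 298 FPKM. Microglia markers are given beside the results, since those cells are a known source of lysosomal transcripts.

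Summed over the 38 genes, the cKO controls stood as high as the groups exposed to amyloid. The sum was 10359 and 9949.6 FPKM in the cKO controls and 5075 and 4315 in the Ogt cKO. It was 5055 and 6219 in the AD controls and 7127 and 11868 in the AD model, and 5383 and 5709 in the Aβ controls and 11265 and 8796 with Aβ. The 2 groups of each experiment did not overlap, and the libraries of the AD model were further apart than those of any other group. Both cKO control libraries were above all 4 AD and Aβ control libraries for 28 of 38 members, while this held for 21.2% of all genes tested, and both were below them for 0 of 38 (15.8% of all genes). Cd68 was at 346 and 333 FPKM in the cKO controls and at 37.1 to 83.3 in the other controls, Man2b1 at 75.9 and 67.6 against 14.5 to 25.1, and Lipa at 163 and 153 against 32.0 to 44.9. Both Ogt cKO libraries lay within the range of those 4 other controls for 18 of 38 members, against 61% of all genes. On the log2 scale the median member was 0.78 above the mean of the AD and Aβ controls in the cKO controls and 0.13 below it in the Ogt cKO. The controls differ in age, genotype and experiment, which cannot be told apart here.

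**Figure D1:**
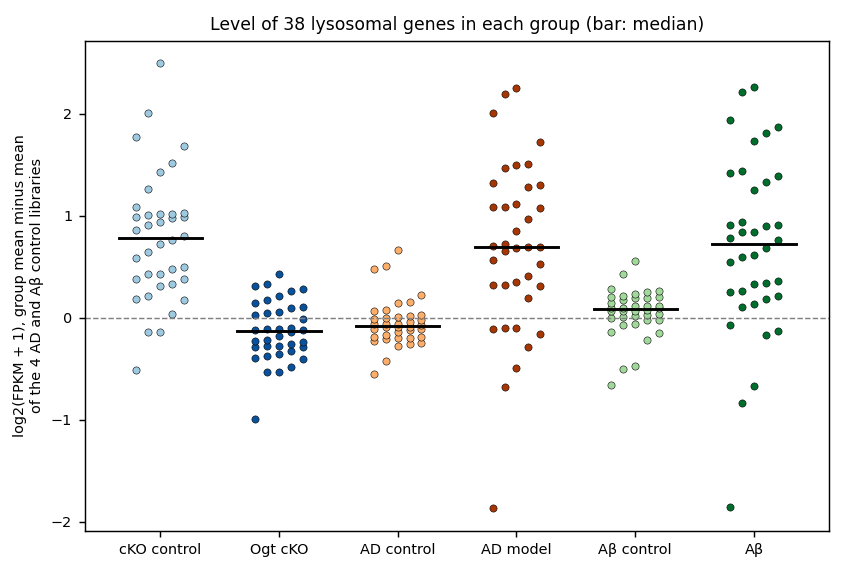
Level of the 38 lysosomal genes in each of the 6 groups, as the group mean of log2(FPKM + 1) minus the mean of the 4 AD and Aβ control libraries (1 point per gene, bar at the median). The medians of the cKO control (0.78), AD model (0.69) and Aβ (0.72) groups lie above the dashed line at 0, and that of the Ogt cKO (-0.13) lies near those of the AD and Aβ controls.

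Microglia markers were also highest in the cKO controls, and higher in the AD model and with Aβ than in the controls of those experiments. The 20 listed genes summed to 3677 and 3217 FPKM in the cKO controls, 821 and 643 in the Ogt cKO, 687 and 749.6 in the AD controls, 1408 and 2168 in the AD model, 819 and 1149 in the Aβ controls and 1976 and 1555 with Aβ. The complement gene C1qa, which other macrophages also express, was at 161 to 1147 FPKM. Of the defining microglia genes, P2ry12 was at 0 to 1.69 FPKM, Cx3cr1 at 0.0854 to 8.68 and Tmem119 at 2.18 to 20.1, with its highest value in an Aβ control library and not in the cKO controls (7.15 and 8.94). Perivascular macrophage markers, 6 listed, summed to 187 and 84.8 FPKM in the cKO controls, 28.3 and 17.1 in the Ogt cKO, 16.4 to 46.0 in the AD and Aβ controls, 279 and 376 in the AD model and 219 and 192 with Aβ. Oligodendrocyte markers, 8 listed, showed the same directions, with 153 and 326 FPKM in the cKO controls, 31.1 and 26.3 in the Ogt cKO, 24.2 to 140.5 in the AD and Aβ controls, 390.0 and 464 in the AD model and 316 and 164 with Aβ. In bulk RNA fewer cells of a type and less RNA per cell cannot be told apart. The part of microglia, macrophages, oligodendrocytes, fibroblasts or cells of the vessel wall in the changes of the 38 genes was not tested.

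**Figure D2:**
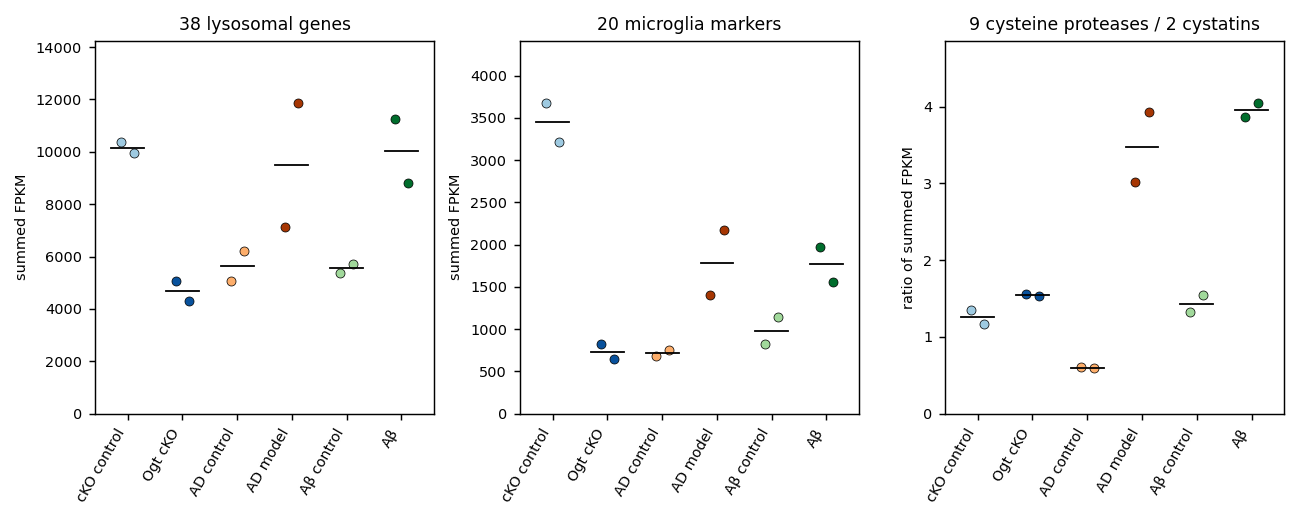
Summed FPKM of the 38 lysosomal genes (left), summed FPKM of 20 microglia markers (middle) and the ratio of the summed FPKM of 9 cysteine proteases to that of the cystatins Cst3 and Cstb (right), in each library (points) with the group mean (bars). The microglia sum is highest in the cKO controls (3677 and 3217), while the ratio is highest in the AD model (3.02 and 3.93) and with Aβ (3.87 and 4.05).

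Promoters of 32 of the 38 members were found in RefSeq's set for GRCm38.p6, the build mm10 of the files, and the 250 bases before each RefSeq start were searched on both strands. Ctsb, Ctsh, Cstb, Galns, Asah1 and Npc1 had no entry. The motif TCACGTG, part of the site bound by TFEB and its relatives, was present in 9 of the 32 members (28.1%), in 20.8% of 72 other lysosomal genes and in 5.69% of 9974 genes tested. Its carriers were Ctsa, Ctsd, Gaa, Gla, Glb1, Lamp1, Lgmn, Mcoln1 and Naglu. The AP-1 motif TGAGTCA was present in 4 members (12.5%), in 1.39% of the 72 other lysosomal genes and in 4.2% of genes tested. The 4 were Cd68, Glb1, Neu1 and Psap. In Glb1 this motif overlaps TCACGTG. The core of the interferon-stimulated response element (GAAA, any 2 bases, GAAA) was present in Ctss and Lamp1 (6.25%), in 4.17% of the other lysosomal genes and in 3.23% of genes tested. A match describes these letters only, and the motifs were chosen with the expression results known. The following 5 promoters are shown because their genes mark the range of behaviour described below, 5′ to 3′ on the strand of the gene, with matches in capitals. For Gla and Ctsd the RefSeq start lies inside the gene span of the files, so their windows overlap it. TCACGTG is marked in Gla and Ctsd (2 sites each, 1 of those in Ctsd on the other strand only and the rest read on both strands as TCACGTGA), the interferon core in Ctss and TGAGTCA in Cd68. Ctsk has none of the 3 motifs in this window.
Gla, chrX:134601006-134601255, minus strand: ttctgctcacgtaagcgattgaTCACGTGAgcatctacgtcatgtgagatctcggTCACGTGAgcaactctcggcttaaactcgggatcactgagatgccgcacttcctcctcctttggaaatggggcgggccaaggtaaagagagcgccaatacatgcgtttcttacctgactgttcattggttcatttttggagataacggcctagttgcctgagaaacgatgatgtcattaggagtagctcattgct
Ctsd, chr7:142387828-142388077, minus strand: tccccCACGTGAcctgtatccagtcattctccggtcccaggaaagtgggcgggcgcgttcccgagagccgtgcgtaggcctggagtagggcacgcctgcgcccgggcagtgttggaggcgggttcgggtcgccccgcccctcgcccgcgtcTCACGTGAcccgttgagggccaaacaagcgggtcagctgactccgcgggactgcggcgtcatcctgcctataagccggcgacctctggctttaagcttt
Ctss, chr3:95526536-95526785, plus strand: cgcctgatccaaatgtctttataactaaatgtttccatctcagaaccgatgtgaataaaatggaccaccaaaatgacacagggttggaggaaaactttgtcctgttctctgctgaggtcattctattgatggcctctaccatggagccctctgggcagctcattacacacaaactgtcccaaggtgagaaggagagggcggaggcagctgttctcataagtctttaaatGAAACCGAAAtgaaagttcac
Cd68, chr11:69666171-69666420, minus strand: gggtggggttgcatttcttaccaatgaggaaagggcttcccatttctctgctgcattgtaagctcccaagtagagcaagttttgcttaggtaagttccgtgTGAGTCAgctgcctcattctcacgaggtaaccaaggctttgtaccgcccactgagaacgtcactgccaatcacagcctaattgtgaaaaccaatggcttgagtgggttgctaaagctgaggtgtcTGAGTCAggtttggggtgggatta
Ctsk, chr3:95498960-95499209, plus strand: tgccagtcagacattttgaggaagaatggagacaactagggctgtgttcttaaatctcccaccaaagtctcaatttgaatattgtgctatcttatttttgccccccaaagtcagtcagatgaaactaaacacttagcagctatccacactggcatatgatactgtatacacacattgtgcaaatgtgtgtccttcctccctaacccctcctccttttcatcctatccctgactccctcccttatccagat

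The cKO comparison sets astrocyte cultures with the Ogt cKO against those of their controls, and the levels of cell type markers differed between these groups. Of the 38 members 20 fell and 0 rose, while 42.3% of all genes tested were called, 19.8% lower and 22.6% higher. With a log2 change of -1 or less there were 16 of 38, against 6.46% of all genes. At an unadjusted p under 0.05, 25 members were lower and 1 (Cstb) higher, and voom on the recovered reads called 21 lower and 0 higher. The median log2 change was -0.78 over the members and -0.0024 over all genes. The losses reached every role, with 3 of 9 cysteine proteases, 2 of 3 other proteases, 1 of 2 cystatins, 5 of 9 enzymes of glycan breakdown, 5 of 8 genes of lipid handling, 3 of 6 membrane proteins and Tfeb.

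Among the cysteine proteases, Ctsb, which encodes the broadly acting cathepsin B (ENSMUSG00000021939, chr14:63122462-63145923, mm10), was at 1302 and 1190.3 FPKM in the controls and 420.3 and 354 in the Ogt cKO, 3.22-fold lower in the mean (log2 change -1.69 ± 0.35 (SE), adjusted p = 0.0068). Lgmn, for legumain, which cleaves after asparagine and helps to mature other cathepsins (chr12:102394084-102439813), was at 386 and 299.6, then 91.0 and 77.3 FPKM (log2 change -2.01 ± 0.23 (SE), adjusted p = 0.0011). Ctsf, for cathepsin F, went from 50.03 and 54.0 to 20.5 and 19.6 FPKM (log2 change -1.33 ± 0.30 (SE), adjusted p = 0.0093). The groups did not overlap for any of these 3 genes, which were picked by their calls. The share of all genes without overlap was not counted. The other 6 cysteine proteases gave log2 changes from -0.65 (Ctss, adjusted p = 0.1) to 0.19 (Ctsl, adjusted p = 0.43). Ctsk, for the collagen-degrading cathepsin K, stood at 37.7 and 37.2 FPKM in the controls and 34.8 and 36.1 in the Ogt cKO, and Ctss, for cathepsin S, at 192 and 158, then 131 and 93.8.

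Among the other proteases, Ctsa, for the serine carboxypeptidase that also protects the enzymes of Glb1 and Neu1, was at 187 and 184 FPKM in the controls and 85.7 and 72.5 in the Ogt cKO (log2 change -1.22 ± 0.32 (SE), adjusted p = 0.017). Ctsd, for the aspartic protease cathepsin D (chr7:142375911-142388038), was one of the most abundant members and went from 1649.8 and 1520.3 to 928 and 752 FPKM (log2 change -0.92 ± 0.27 (SE), adjusted p = 0.023). Tpp1, for a tripeptidyl peptidase, had a log2 change of -0.51 ± 0.21 (adjusted p = 0.081). The cystatins went separate ways. Cst3, for the secreted cystatin C (ENSMUSG00000027447, chr2:148871722-148875692), was at 1706 and 1801 FPKM in the controls and 469 and 407 in the Ogt cKO, 4.01-fold lower (log2 change -2.00 ± 0.24 (SE), adjusted p = 0.0012). Cstb, for the cytosolic cystatin B, was at 151 and 129.8, then 271 and 226 FPKM, a difference in the other direction that did not pass the test (log2 change 0.82 ± 0.33 (SE), adjusted p = 0.076).

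Among the enzymes of glycan breakdown, Man2b1, an alpha-mannosidase gene, went from 75.9 and 67.6 to 17.9 and 15.0 FPKM, 4.36-fold lower (log2 change -2.06 ± 0.33 (SE), adjusted p = 0.0029). Hexa, for a subunit of the beta-hexosaminidase that degrades gangliosides, went from 349.7 and 341 to 118 and 103 FPKM (log2 change -1.64 ± 0.27 (SE), adjusted p = 0.0031). The sialidase gene Neu1 fell from 28.2 and 26.3 to 11.1 and 10.3 FPKM (log2 change -1.27, adjusted p = 0.039), and smaller falls were called for Naglu (-0.98) and the beta-galactosidase gene Glb1 (-0.70). The log2 changes of Gla, Gaa, Gusb and Galns were -0.60, -0.31, -0.73 and -0.07 and did not pass the test. Among the lipid genes, Lipa, for the acid lipase that frees cholesterol from its esters, went from 163 and 153 to 38.01 and 28.3 FPKM (log2 change -2.23 ± 0.32 (SE), adjusted p = 0.002). Npc1, a cholesterol exporter of the lysosomal membrane, went from 17.8 and 20.0 to 7.11 and 6.49 FPKM (log2 change -1.35), while its partner Npc2 was at 92.5 and 89.3, then 84.7 and 71.8 (adjusted p = 0.43). Psap, the precursor of the saposins that present lipids to their enzymes, went from 1391 and 1430.0 to 663 and 569 FPKM (log2 change -1.20). Grn, for progranulin, whose loss causes lysosomal disease of the brain, went from 314 and 265 to 127 and 114 (log2 change -1.26). Ppt1, for a thioesterase that removes palmitate from proteins, went from 63.6 and 66.0 to 28.8 and 25.6 (log2 change -1.22). It shares 129 exonic bases with the opposite-strand gene Cap1, and strand use in the counting is not given.

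Among the membrane proteins, the macrophage glycoprotein gene Cd68 had the largest fall of the 38, from 346 and 333 to 55.2 and 35.9 FPKM, 7.46-fold lower (log2 change -2.90 ± 0.52 (SE), adjusted p = 0.0043). Scarb2, for the receptor that carries glucocerebrosidase to the lysosome, went from 49.6 and 67.0 to 14.6 and 13.7 FPKM (log2 change -1.96 ± 0.23 (SE), adjusted p = 0.0012), and the membrane shield gene Lamp2 from 58.7 and 57.3 to 23.6 and 24.8 (log2 change -1.23). Its relative Lamp1 was at 549 and 512, then 397 and 336 FPKM (log2 change -0.54, adjusted p = 0.11), and the tetraspanin gene Cd63 at 188 and 191, then 222 and 211 (adjusted p = 0.35). Tfeb itself fell from 4.42 and 5.57 to 2.28 and 2.47 FPKM (log2 change -0.82 ± 0.16 (SE), adjusted p = 0.0061).

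In the same libraries 9 of 18 tested microglia markers fell and 0 rose (median log2 change -0.85, C1qa -2.53, Csf1r -1.84). P2ry12 (-0.39), Cx3cr1 (-0.50) and Tmem119 (0.82) did not pass the test. Of the astrocyte markers 10 of 13 fell and 0 rose (median -1.81). Perivascular macrophage (3 of 3) and oligodendrocyte markers (5 of 8) fell, and endothelial (8 of 8) and pericyte and smooth muscle markers (5 of 8) rose. The count of 20 members was 13 when replicate 1 of either group was left out and 10 when replicate 2 of either group was left out. Ctsa, Lamp2 and Neu1 (adjusted p = 0.06 to 0.14) and the smaller falls of Ctsd, Glb1 and Naglu lost their calls whichever of the 4 libraries was left out. Tfeb lost its call without control replicate 2. Ctsf (0.062 without control replicate 2, 0.051 and 0.052 without 1 or the other knockout library), Grn (0.054 without control replicate 1, 0.056 without Ogt cKO replicate 2), Ppt1 and Psap (0.058 and 0.055 without control replicate 2, 0.055 and 0.055 without Ogt cKO replicate 2) lost theirs without some. Fewer of all genes were also called in each fit without 1 of these libraries. With no filter on low values Ctsd, Glb1, Naglu and Neu1 were not called. With values rescaled to the total reads of a library the median of all genes moved to -0.19 and that of the members to -0.99, with 29 members lower and 0 higher, and the share of all calls that were higher went from 53.3% to 35.3%.

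**Figure D3:**
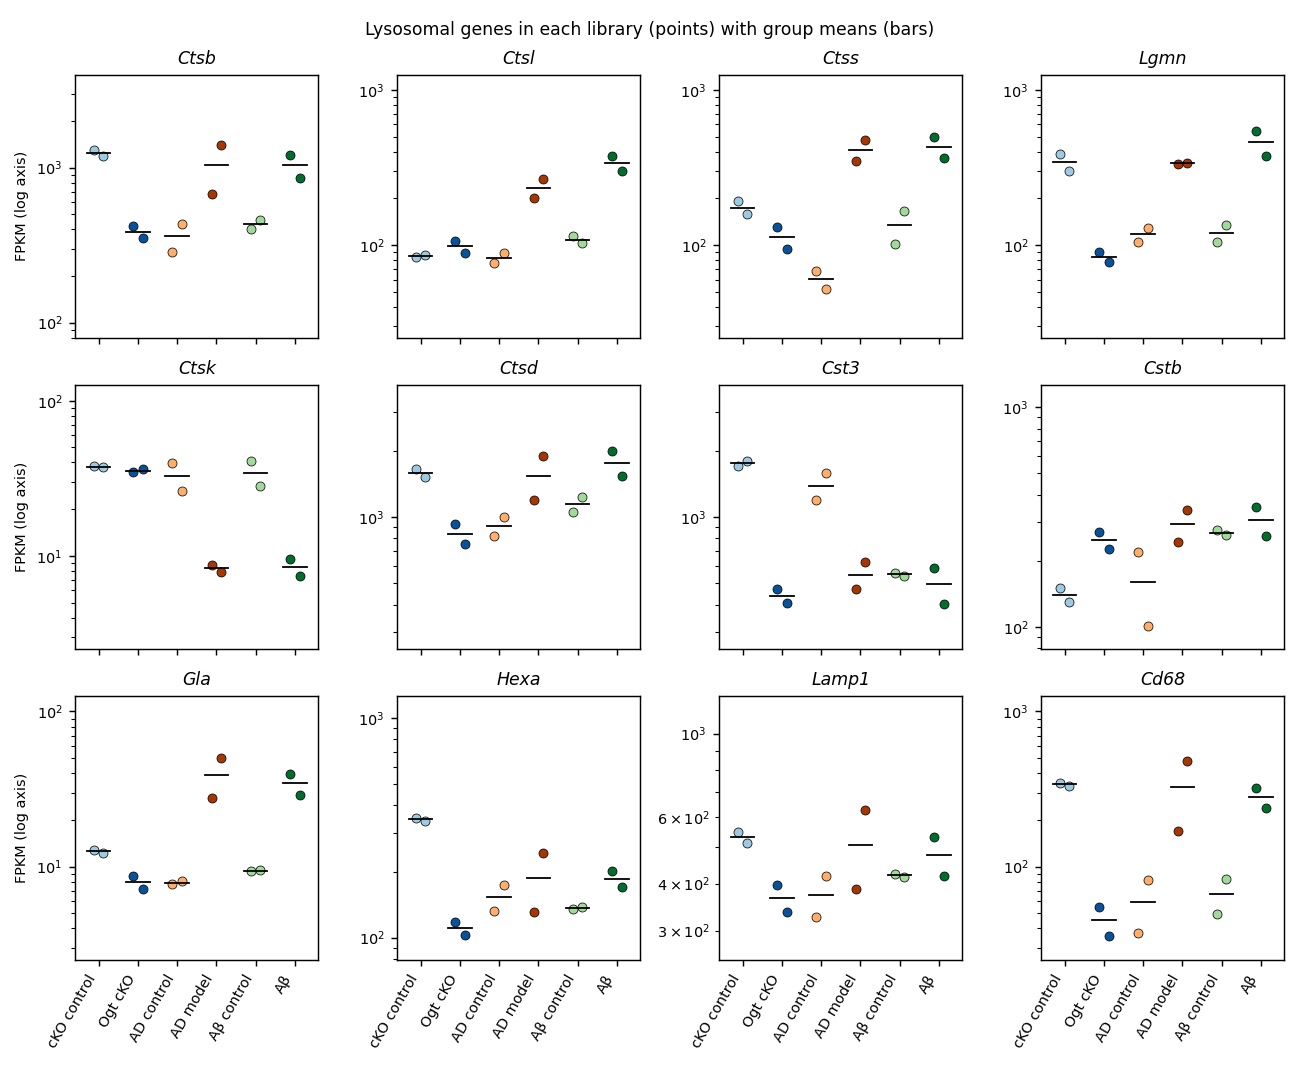
FPKM of 12 of the 38 genes on log axes in each library (points) with group means (bars). Ctsb, Lgmn, Hexa and Cd68 are high in both cKO control libraries and low in both Ogt cKO libraries, Ctsl and Gla have their highest means in the AD model (233 and 39.0 FPKM) and with Aβ (336 and 34.4 FPKM), and Ctsk is low in these same 2 groups (8.30 and 8.47 FPKM).

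The AD comparison sets astrocytes from amyloid model mice against those from wild type mice. Of the 38 members 16 rose and 2 fell, while 17.1% of all genes tested were called, 9.8% higher and 7.27% lower. With a change of at least 1 on the log2 scale 13 rose and 2 fell, against 6.08% and 2.87% of all genes. The median log2 change was 0.75 over the members and -0.024 over all genes. By role, 7 of 9 cysteine proteases rose, 3 of 9 enzymes of glycan breakdown, 4 of 8 genes of lipid handling, 1 of 3 other proteases and 1 of 6 membrane proteins. The falls were Ctsk and Cst3.

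Ctss, for cathepsin S, which trims the invariant chain of MHC class II (ENSMUSG00000038642, chr3:95526786-95556403), rose most, from 67.8 and 52.5 FPKM in the controls to 350.0 and 474 in the AD model, 6.85-fold (log2 change 2.75 ± 0.29 (SE), adjusted p = 4.2e-04). Its promoter carries the interferon response motif shown above, 21 bases before the start. Lamp1, the other member with this motif, was not called (adjusted p = 0.32), and a role of the motif was not tested. Ctsz, for the carboxypeptidase cathepsin X, went from 202 and 185 to 486 and 1184 FPKM (log2 change 1.97 ± 0.35 (SE), adjusted p = 0.0051), with the replicates of the model far apart. Lgmn went from 105 and 129.9 to 334 and 338 (log2 change 1.52 ± 0.23 (SE), adjusted p = 0.0025) and Ctsl, for the endopeptidase cathepsin L, from 76.7 and 89.2 to 200.04 and 267 (log2 change 1.47 ± 0.19 (SE), adjusted p = 0.001). Ctsb was at 284 and 435, then 680.1 and 1389.7 FPKM (log2 change 1.46 ± 0.35 (SE), adjusted p = 0.02), and Ctsc, for the dipeptidyl peptidase that activates granule proteases, at 26.6 and 12.2, then 41.0 and 55.8 (log2 change 1.35, adjusted p = 0.04). The groups of all 6 genes, picked by their calls, did not overlap, and the share of all genes without overlap was not counted. Ctsh, an aminopeptidase gene, rose by less, with a log2 change of 0.94 (adjusted p = 0.0042).

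Ctsk was the 1 cysteine protease called lower. It was at 39.4 and 26.0 FPKM in the controls and 8.79 and 7.81 in the AD model, 3.94-fold lower (log2 change -1.83 ± 0.22 (SE), adjusted p = 8.2e-04). Ctsf was at 26.0 and 45.4, then 17.2 and 32.9 FPKM, with overlapping groups (log2 change -0.51 ± 0.30, adjusted p = 0.31), and was called lower without AD model replicate 2 and with the replicate number as a block. Markers of pericytes and smooth muscle, cells of the vessel wall, moved in the same libraries, with 6 of 8 lower and a sum of 3842 and 1719.6 FPKM in the controls and 759 and 210.1 in the model. Of 8 fibroblast markers 4 fell (sum 2665 and 1470.4, then 1230.1 and 612), and their part in the Ctsk values was not tested. Cst3 fell too, from 1193 and 1585 to 470.1 and 624 FPKM (log2 change -1.34 ± 0.24 (SE), adjusted p = 0.0058), in libraries where 5 of 13 astrocyte markers fell and 0 rose. Cstb was at 218 and 101.3, then 244 and 342 FPKM (adjusted p = 0.088), and its control replicates differed by more than 2-fold. Ctsd was at 818 and 996, then 1199 and 1890.3 (log2 change 0.74 ± 0.27, adjusted p = 0.096).

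Gla, for the alpha-galactosidase lacking in Fabry disease (ENSMUSG00000031266, chrX:134588149-134601125), rose most among the enzymes of glycan breakdown, from 7.68 and 8.03 to 27.9 and 50.1 FPKM, 4.96-fold (log2 change 2.12 ± 0.25 (SE), adjusted p = 6.7e-04). The sulfatase gene Galns went from 8.36 and 8.89 to 18.7 and 37.1 (log2 change 1.51 ± 0.26 (SE), adjusted p = 0.0045) and the beta-glucuronidase gene Gusb from 28.2 and 25.4 to 39.5 and 80.3 (log2 change 1.05, adjusted p = 0.03). Hexa was at 132 and 173 in the controls and 131 and 243 in the model, so the groups overlapped (adjusted p = 0.61). Lipa rose from 32.0 and 44.9 to 77.5 and 152 FPKM (log2 change 1.49 ± 0.32 (SE), adjusted p = 0.012), Psap from 587 and 834 to 1220.1 and 1849 (log2 change 1.10) and Grn from 123 and 153 to 219 and 422 (log2 change 1.14). Npc2, which hands cholesterol to Npc1, had a log2 change of 1.00 ± 0.22 (adjusted p = 0.013), from 64.3 and 55.8 to 94.2 and 155 FPKM. Tpp1 rose by 0.76 on the log2 scale.

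Cd68 was the 1 membrane protein gene that rose, from 37.1 and 81.4 to 169 and 481 FPKM, 5.49-fold (log2 change 2.35 ± 0.52 (SE), adjusted p = 0.015). Its promoter holds 2 AP-1 motifs, 149 and 24 bases before the start. Of the other members with this motif Psap rose, while Glb1 and Neu1 were not called (adjusted p = 0.20 and 0.13), and a role of the motif was not tested. Lamp1 was at 326 and 419, then 386 and 629 FPKM and Lamp2 at 31.4 and 53.7, then 41.8 and 77.4, and for both the lower library of the model was below the higher control library (adjusted p = 0.32 and 0.39). Tfeb was at 3.00 and 4.09, then 2.70 and 3.26 FPKM (log2 change -0.19 ± 0.16, adjusted p = 0.51). In these libraries 12 of 18 microglia markers rose and 0 fell (median log2 change 1.19), among them C1qa (1.03) and Csf1r (1.10), while P2ry12 (0.22), Cx3cr1 (-1.62) and Tmem119 (-1.31) did not pass the test. Of the perivascular macrophage markers 2 of 3 rose, and of the oligodendrocyte markers 6 of 8.

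The AD calls rest on the spread of all 12 libraries. With the 4 AD libraries alone Ctss was the 1 member called higher and 0 were lower, where 278 of all 14014 genes were called. The count of 16 higher was 10 without AD control replicate 1, 12 without AD control replicate 2, 23 without AD model replicate 1 and 9 without AD model replicate 2, which also gave 4 lower and a median of 0.27. Without AD control replicate 1 the calls of Cd68 (0.072), Ctsb (0.085), Grn (0.089), Gusb (0.064), Lipa (0.059) and Psap (0.064, adjusted p) and that of Tpp1 were lost, without AD model replicate 2 those of Cd68 (0.058), Ctsb (0.075), Ctsc (0.14), Grn (0.06), Gusb (0.053) and Psap (0.078) and that of Tpp1, without AD control replicate 2 those of Ctsc (0.18) and Gusb (0.099) and those of Npc2 and Tpp1, and without AD model replicate 1 that of Ctsc (0.057). In these fits without 1 AD library the calls among all genes stayed near their number in the main fit. With no filter on low values 10 members were higher, and Ctsb, Ctsc, Grn, Gusb, Psap and Tpp1 were not among them.

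The Aβ comparison sets astrocyte cultures given the peptide against untreated ones. Of the 38 members 17 rose and 2 fell, while 35.9% of all genes tested were called, 20.8% higher and 15.1% lower. With a change of at least 1 on the log2 scale 13 rose and 1 fell, against 11.3% and 4.2% of all genes. The median log2 change was 0.64 over the members and -0.037 over all genes. The same 7 cysteine proteases rose as in the AD comparison, and in all 15 members were called higher in both, which is 15 of the 16 of the AD comparison and 15 of the 17 here. How many of all genes tested were called higher in both was not counted.

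Among the cysteine proteases Lgmn rose most, from 105 and 135 FPKM in the controls to 548 and 376 with Aβ, 3.84-fold (log2 change 1.92 ± 0.23 (SE), adjusted p = 4.2e-04). Ctss went from 102 and 167 to 495 and 366 FPKM (log2 change 1.70 ± 0.29 (SE), adjusted p = 0.0025), Ctsl from 114 and 103 to 373 and 299 (log2 change 1.62 ± 0.19 (SE), adjusted p = 3.5e-04) and Ctsz from 269 and 274 to 861 and 679 (log2 change 1.49 ± 0.35 (SE), adjusted p = 0.01). Ctsc went from 15.6 and 13.8 to 54.4 and 33.0 (log2 change 1.47) and Ctsb from 401 and 459.7 to 1210.1 and 857 (log2 change 1.24, adjusted p = 0.022), and Ctsh had a log2 change of 0.59. In each of these genes, picked by their calls, both treated libraries were above both controls, and the share of all genes with this was not counted. Ctsk fell, from 40.6 and 28.3 to 9.53 and 7.41 FPKM, 4.07-fold lower (log2 change -1.89 ± 0.22 (SE), adjusted p = 3.9e-04), in libraries where 7 of 8 pericyte and smooth muscle markers fell and their sum went from 4104 and 3602 to 488 and 421 FPKM. In the cKO experiment the same sum went from 1011 and 505 to 4027 and 4076 FPKM, while Ctsk was not called (log2 change -0.08 ± 0.22). The part of these cells in the Ctsk values was not tested. Ctsf was at 25.4 and 24.9, then 26.1 and 25.9 FPKM (log2 change 0.04 ± 0.30).

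Cst3 was at 559 and 539.6 FPKM in the controls and 586 and 402 with Aβ, with overlapping groups (log2 change -0.18 ± 0.24, adjusted p = 0.59). Both Aβ control libraries were below the cKO and AD control libraries in Cst3. Cstb was at 276 and 262, then 351 and 261 (adjusted p = 0.71). Ctsd was at 1056 and 1234, then 1988 and 1538 FPKM, with no overlap but no call (log2 change 0.61 ± 0.27, adjusted p = 0.1).

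Gla rose from 9.31 and 9.52 to 39.6 and 29.1 FPKM, 3.65-fold (log2 change 1.75 ± 0.25 (SE), adjusted p = 9.8e-04), and Galns from 12.3 and 11.6 to 30.0 and 27.6 (log2 change 1.20 ± 0.26 (SE), adjusted p = 0.007). The other 7 enzymes of glycan breakdown gave log2 changes from -0.05 (Gaa) to 0.93 (Neu1) without a call. Hexa was at 135 and 137, then 200.1 and 170.0 FPKM (adjusted p = 0.23). Psap rose from 685 and 698 to 2065 and 1712 FPKM (log2 change 1.44 ± 0.26 (SE), adjusted p = 0.0028) and Lipa from 35.7 and 43.6 to 108 and 80.1 (log2 change 1.22). Grn, at 149 and 151, then 298 and 244 FPKM, rose by 0.84 on the log2 scale, Tpp1 by 0.78 and Npc2 by 0.66. The sphingomyelinase gene Smpd1 fell from 48.6 and 40.7 to 28.9 and 25.9 FPKM (log2 change -0.68 ± 0.21 (SE), adjusted p = 0.034), a call that was lost without any 1 of the 4 libraries.

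Of the membrane proteins 3 of 6 rose. Cd68, with the largest rise of the 38, went from 49.4 and 83.3 to 323 and 239 FPKM, 4.24-fold (log2 change 2.10 ± 0.52 (SE), adjusted p = 0.013). Scarb2 went from 14.3 and 15.1 to 36.0 and 29.0 (log2 change 1.08) and Lamp2 from 16.9 and 23.7 to 47.5 and 37.8 (log2 change 1.05, adjusted p = 0.032). Lamp1 was at 425 and 417, then 533 and 419.7 FPKM (adjusted p = 0.63), and Tfeb at 3.61 and 3.10, then 4.08 and 3.62 (adjusted p = 0.47). Of 18 microglia markers 9 rose and 2 fell (median log2 change 0.71). C1qa (0.41) and Csf1r (0.34) did not pass the test, and Cx3cr1 (-2.17) and Tmem119 (-1.85) fell. Of the perivascular macrophage markers 3 of 3 rose, of the oligodendrocyte markers 8 of 8 and of the endothelial markers 6 of 8. Of 13 astrocyte markers 2 rose and 2 fell (median -0.36), and of 8 fibroblast markers 1 rose and 3 fell.

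The count of 17 higher was 6 without Aβ control replicate 1 or without Aβ replicate 1, namely Ctsl, Ctss, Lgmn, Gla, Galns and Psap in both cases, 12 without Aβ control replicate 2 and 13 without Aβ replicate 2. Of the members named with a change of at least 1, Cd68, Ctsb, Ctsc, Ctsz, Lamp2, Lipa and Scarb2 lost their calls without Aβ control replicate 1 (adjusted p = 0.0502 to 0.19) and without Aβ replicate 1 (0.059 to 0.16), Ctsb (0.062) and Ctsc (0.073) without Aβ control replicate 2, and Lamp2 (0.067) without Aβ replicate 2. Of the smaller rises, Grn and Npc2 lost their calls whichever of the 4 libraries was left out, Tpp1 lost its call without any 1 of them but Aβ control replicate 2, and Ctsh without any 1 of them but Aβ replicate 2.

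**Figure D4:**
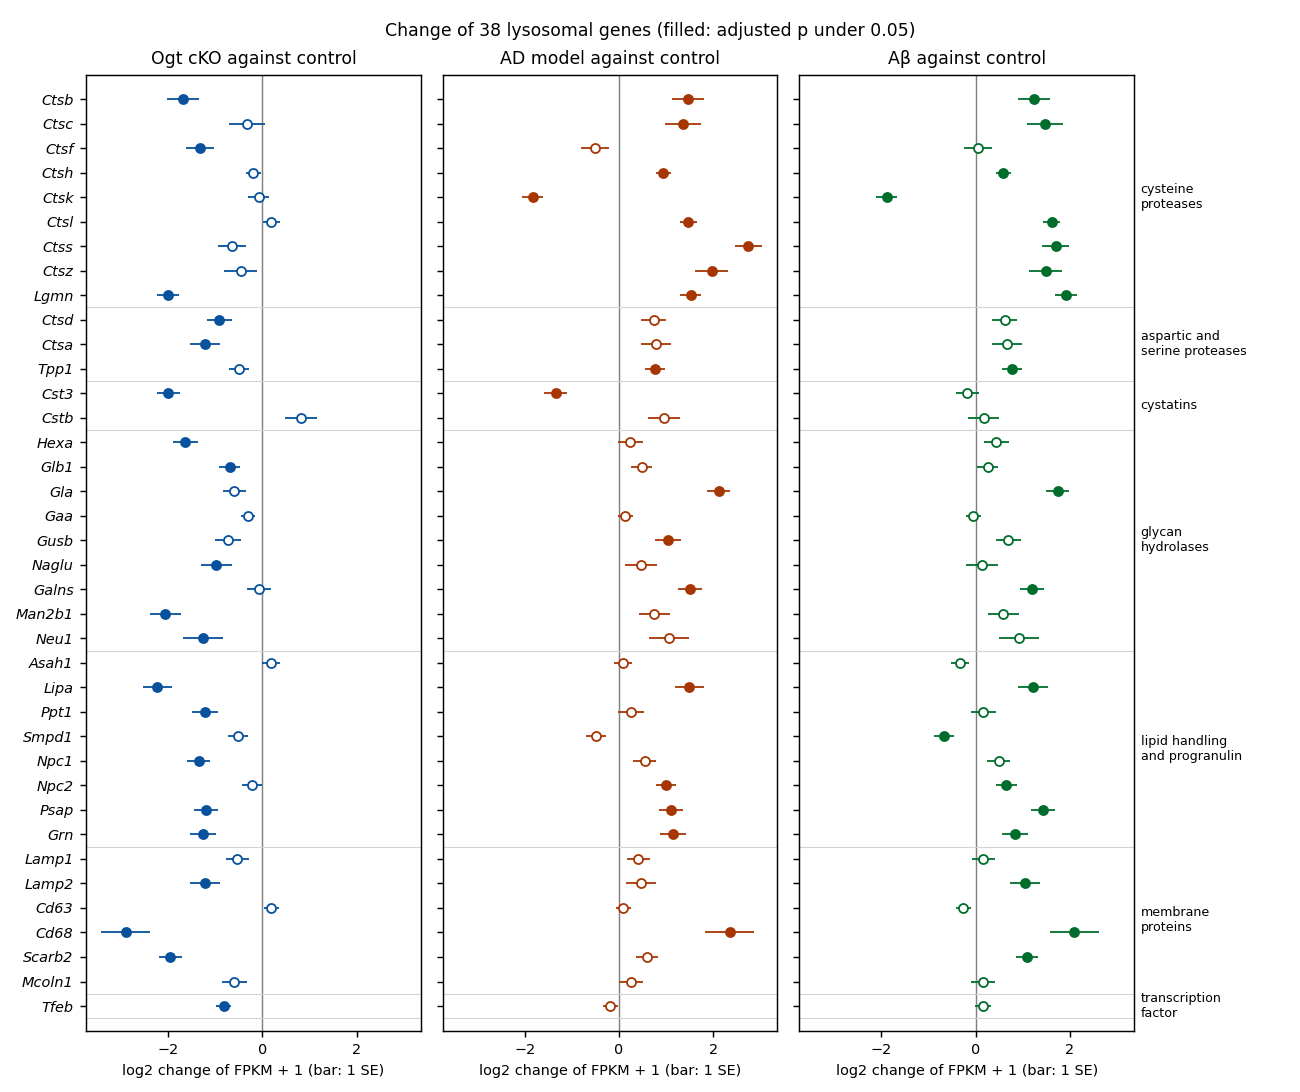
Change of log2(FPKM + 1) of the 38 genes in the 3 comparisons with 1 SE (bars), ordered by role, with filled points at an adjusted p under 0.05. The Ogt cKO panel holds 20 filled points, all below 0, the AD panel 16 above and 2 below 0, and the Aβ panel 17 above and 2 below 0.

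The 3 experiments share no libraries, so their effects could be set against each other in the same fit. The change in the AD model differed from that in the Ogt cKO for 27 of 38 members, where 25.6% of all genes tested differed, and the change with Aβ differed from that in the Ogt cKO for 30 of 38, where 52.3% of all genes did. The difference pointed up for 26 and 29 of these members and down for Ctsk in both. Of all genes tested it pointed up for 11.9% and 26.6% and down for 13.7% and 25.7%. Ctsb, Lgmn, Lipa, Psap, Grn and Cd68 fell in the Ogt cKO and rose in the AD model and with Aβ, and Lamp2 and Scarb2 fell in the Ogt cKO and rose with Aβ. Of these calls, that of Grn with Aβ and that of Lamp2 in the Ogt cKO were lost whichever library of the comparison was left out. For Cd68 the difference in log2 change was 5.26 ± 0.73 between AD and cKO (adjusted p = 0.0021) and 5.00 ± 0.73 between Aβ and cKO (adjusted p = 9.5e-04). Ctsc, Ctsh, Ctsl, Ctss, Ctsz, Tpp1, Gla, Galns and Npc2 rose in the AD model and with Aβ without a call in the Ogt cKO, and each of the 9 differed between experiments in both tests. For Ctsl, the difference was 1.28 ± 0.26 for AD and 1.43 ± 0.26 for Aβ against the Ogt cKO. The 11 members Ctsf, Ctsd, Ctsa, Hexa, Glb1, Naglu, Man2b1, Neu1, Ppt1, Npc1 and Tfeb fell in the Ogt cKO and were called in neither other comparison. Cstb, Gaa, Asah1, Lamp1, Cd63 and Mcoln1 were called in none of the 3. The share of all genes with each of these patterns of calls was not counted. The count of 27 between AD and cKO was lower without Ogt cKO replicate 2, where fewer of all genes were also called.

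Between the AD model and Aβ 0 of 38 members differed, where 6.14% of all genes did (1.52% with a higher and 4.62% with a lower change in the AD model), and voom on the recovered reads also gave 0. At an unadjusted p under 0.05 there were 2, Ctss, with a difference of 1.05 ± 0.41 (95% interval 0.11 to 1.99, adjusted p = 0.17), and Cst3, at -1.17 ± 0.34 (95% interval -1.94 to -0.39, adjusted p = 0.083). The intervals of the 38 differences reached 0.50 to 1.66 to each side on the log2 scale, so a difference of 2-fold between these effects could not be detected for many members. Some members were called without AD control replicate 1 (Cst3 and Cstb) and without AD model replicate 1 (Ctsz, Gusb and Galns). More of all genes were also called in both of these fits than in the main fit.

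The ratio of cysteine proteases to cystatins was higher in both exposed libraries than in both controls of each amyloid experiment, a description chosen after the values were seen and not tested. The summed FPKM of the 9 cysteine protease genes was 0.603 and 0.589 times that of Cst3 and Cstb in the AD controls and 3.02 and 3.93 times in the AD model. It was 1.32 and 1.54 times in the Aβ controls and 3.87 and 4.05 times with Aβ. In the cKO controls it was 1.36 and 1.16 times and in the Ogt cKO 1.56 and 1.54 times. In the AD experiment the protease sums were 850.2 and 993, then 2153 and 3794 FPKM and the cystatin sums 1411 and 1686, then 714 and 966. With Aβ the proteases went from 1104 and 1234 to 3626 and 2685 FPKM while the cystatins stood at 835 and 801, then 937 and 663. Within the proteases, Ctsk was 0.515 and 0.292 times the level of Ctsl in the AD controls and 0.0440 and 0.0293 times in the AD model, and 0.356 and 0.275, then 0.0255 and 0.0248 times in the Aβ experiment.

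The other genes of the lysosome, 93 in 6 lists of which 85 were tested, were counted the same way. In the Ogt cKO 28 fell (32.9%, against 19.8% of all genes) and 7 rose (8.24%, against 22.6%), with a median log2 change of -0.46. In the AD model 14 rose (16.5%, against 9.8%) and 1 fell (1.18%, against 7.27%), with a median of 0.26. With Aβ 12 rose (14.1%, below the 20.8% of all genes) and 5 fell (5.88%, against 15.1%), with a median of 0.13. Of 23 further hydrolases 11 fell and 3 rose in the Ogt cKO, with Hgsnat, for a heparan sulfate acetyltransferase, at -2.81 on the log2 scale. In the AD model 6 rose and 0 fell, with the acid phosphatase gene Acp5 at 2.54. With Aβ 4 rose and 1 fell, with Acp5 at 2.70 and Ctso at 1.42. Acp5 was also among the 3 that rose in the Ogt cKO (0.97). Of 19 genes of the proton pump and chloride exchange that acidify the lysosome 4 fell in the Ogt cKO, 3 rose in the AD model and 3 rose with Aβ, with 0 in the opposite direction in each. The subunit gene Atp6v0d2 was at -2.13 in the Ogt cKO and 2.28 with Aβ, and Tcirg1 at 2.02 in the AD model. Of 14 further membrane proteins 6 fell in the Ogt cKO, 3 rose and 1 fell in the AD model, and 1 rose and 1 fell with Aβ, with Cln3 at -1.21, 1.12 and 1.18. Of 10 genes that sort enzymes to the lysosome 3 fell in the Ogt cKO, among them Sort1 (-1.89), 0 were called in the AD model and 1 fell with Aβ (Igf2r, -0.55). Among 14 relatives and regulators of Tfeb 4 fell and 1 rose in the Ogt cKO, 1 rose in the AD model and 3 rose and 2 fell with Aβ. The relative Tfec rose in both amyloid experiments (1.501 and 1.64) and Rragd, a GTPase gene of the nutrient sensing complex, fell in the Ogt cKO (-1.65). Of 5 tested further cystatins and cathepsin inhibitors 3 rose in the Ogt cKO, among them the serpin gene Serpina3g (1.65). Serpina3g was also the 1 that rose in the AD model (2.18) and with Aβ (2.52).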

How the data were processed

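Total RNA of cultured astrocytes was extracted with TRIzol and sequenced on Illumina libraries, per the labels' protocols, and no cell sorting is described. The authors deposited 1 table of FPKM for 54532 genes with gene lengths. The build is mm10, per the submitters' processing notes. The aligner, counter, annotation and strand setting were not given in the sources used. Multiplying a deposited FPKM by gene length recovered the reads of every gene, to within 0.1 of a whole read. These summed to between 0.886 and 1.10 of the size the FPKM were scaled by. For a gene of 1 kilobase, 3 reads equal 0.145 to 0.191 FPKM (counting error only).

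Samples were grouped by their descriptions, and 0 other sample columns were present. The members, gene lists, tests and the rule for named genes were chosen with earlier results of these data known. The rule names every member called with a log2 change of at least 1 in either direction, 12 fixed members in all groups and up to 2 called genes per further list and comparison. Naglu, Glb1, Ctsh, Tpp1, Smpd1 and other members with smaller changes were named after their values were seen. Genes reaching 1 FPKM in 2 or more libraries were fitted as log2(FPKM + 1), with 1 mean per group over all 12 libraries, in limma 3.58.1 (R 4.3.3) with an intensity trend (6 residual and 2.92 prior degrees of freedom). Differences between experiments were contrasts of the same fit. A fitted change understates the fold of low genes. The procedure was tested on simulated data. Alternatives were pseudocounts of 0.1 and 0.5, no filter, a filter at 5 FPKM, quantile normalization, rescaling to total reads, voom on recovered reads, the replicate number as a block, fits to a single comparison's libraries and fits without 1 library. A crossed block for Aβ was added after seeing the data. In GENCODE M21, 9 of 38 members share exonic bases with another gene above 1 FPKM. Plots were made with matplotlib 3.10.9.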

Additional observations from a re-analysis of the deposited data

Results flagged for a closer look

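The effects of 2 experiments differed, by the contrast within the same limma fit, for 27 members between the AD model and the Ogt cKO (25.6% of all genes tested) and for 30 between Aβ and the Ogt cKO (52.3% of all genes). Among these, 8 members were called in opposite directions, a pattern whose share of all genes was not counted. Their differences in log2 change are given here as amyloid minus Ogt cKO. Against the Ogt cKO, Cd68 differed by 5.26 in the AD model and 5.00 with Aβ, Lipa by 3.73 and 3.45, and Lgmn by 3.53 and 3.92. Ctsb differed by 3.15 and 2.93, Psap by 2.30 and 2.64, and Grn by 2.39 and 2.10. Lamp2 (2.27) and Scarb2 (3.04) were called in opposite directions with Aβ and in the Ogt cKO. The call of Grn with Aβ and that of Lamp2 in the Ogt cKO were lost whichever library of the comparison was left out. With the 4 AD libraries alone the AD calls of Ctsb, Lgmn, Lipa, Psap, Grn and Cd68 were lost. With Aβ, the calls of Ctsb, Lipa, Cd68, Scarb2 and Lamp2 were lost without replicate 1 of either group. In the Ogt cKO those of Grn and Psap were lost without some libraries. All 8 genes were higher in both cKO control libraries than in the 4 other control libraries, as were 28 of the 38 members and 21.2% of all genes tested.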

How the results depend on the processing

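No direction of a named member or of a median reversed under the alternatives run. Of 16 named members in the Ogt cKO 9 kept their calls under all of them, of 15 in the AD model 1 (Ctss) and of 14 with Aβ 7. With the libraries of a comparison alone 1 member was higher in the Ogt cKO (Cstb), and in the AD model 1 was higher and 0 lower. With no filter 10 were higher in the AD model, and 1 was lower with Aβ, as with quantile normalization and with rescaling. Quantile normalization moved the median of the members to -1.20 in the Ogt cKO and 0.79 with Aβ, and rescaling moved it to -0.99 in the Ogt cKO. Of all genes called with Aβ, quantile normalization moved the higher share from 58.0% to 47.4%, and rescaling moved that of the AD and Aβ differences from the Ogt cKO from 46.6% and 50.9% to 63.4% and 63.6%.

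Leaving out 1 library gave 10 to 13 members lower in the Ogt cKO, 9 to 23 higher and 2 to 4 lower in the AD model (median 0.27 to 1.08), 6 to 13 higher and 1 lower with Aβ (median 0.52 to 0.77), 16 to 32 differing between AD and cKO and 0 to 3 between AD and Aβ. A lone remaining library was assumed to vary like the other groups. Fewer of all genes were also called in each of these fits in the Ogt cKO and Aβ comparisons. In the AD comparison the calls among all genes changed little. Between AD and cKO and between AD and Aβ, fewer of all genes were called in some of these fits and more in others.

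Replicates of the same number share only a number in the labels. Their deviations correlated at 0.033 in the cKO, 0.55 in the AD and -0.17 in the Aβ experiment over genes. With the replicate block 24 members were lower in the Ogt cKO, 22 higher and 4 lower in the AD model and 21 higher and 2 lower with Aβ, and 1 (Cst3) differed between AD and Aβ. Calls among all 14014 genes also grew with the block, from 5934 to 6789 in the Ogt cKO, 2392 to 3058 in the AD model and 5025 to 6098 with Aβ. Between AD and Aβ they grew from 861 to 1273. With the Aβ pairing crossed 23 members were higher and 2 lower with Aβ, where 6708 of all genes were called. In all groups the pair of libraries limits precision more than the reads, which were at least 200 for each member.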
